A study of Mus musculus with 12 samples.

Results

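The heat shock proteins and J-domain cochaperones of skeletal muscle were taken from the 12 arrays of the series by gene symbol. A transcript cluster, the unit in which the array reports a gene or part of one, was a member when its only annotated symbol began with Hspa, Hspb, Hspd, Hspe or Hsph and a number, with Hsp90, or with Dnaja, Dnajb or Dnajc and a number. This gave 93 of 28944 transcript clusters, which stand for 70 of 19938 genes. Another 10 transcript clusters carried a member symbol together with a second symbol and were not members. Hspa1b was measured only in 1 of these, shared with Hspa1a, and Hsp90ab1 was not analysed here.

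The arrays came from gastrocnemius muscle of male germ-free ICR mice, labelled Tsl;ICR[GF] and aged 11 weeks, 1 week after the first gavage of feces. The 6 recipients from trained donors (RT) were given feces of exercise-trained mice, and the 6 recipients from sedentary donors (RS) were given feces of sedentary mice. All 12 recipients had no microbiota before the gavage, then lived under specific-pathogen-free conditions on a high-fat diet with repeated gavage, and were fasted for some hours before the muscle was taken. No group without fecal transfer was analysed here. Because recipients shared cages and the same fecal material, effects of a cage or of the fecal sample itself cannot be told apart from the training of the donors, and the p-values measure only the spread between mice.

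Molecular chaperones bind unfolded stretches of other proteins and help them to fold, to cross membranes or to be degraded. HSP70 proteins do this in cycles of ATP hydrolysis that a J-domain protein (DNAJA, DNAJB or DNAJC) starts, HSP90 acts later on kinases and receptors, HSP60 with HSP10 encloses proteins in mitochondria, and the small heat shock proteins hold unfolded proteins, in muscle also at the contractile filaments. Cytosolic stress raises many of these genes through heat shock factor 1, whereas a load of unfolded proteins in the endoplasmic reticulum (ER) raises another set through the unfolded protein response.

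These routes read short DNA elements near the start of transcription. RefSeq promoters (GRCm38.p6, 250 bases before to 50 bases after a start) could be matched to 57 of the 70 genes. The ER stress element, searched as CCAAT and CCACG with 9 free bases between them on either strand, was present in 3 of the 57 genes (5.26%), namely Hspa5, Hsp90b1 and Dnajc3, against 37 of all 27025 genes with a promoter (0.137%). The following stretches show it in capitals, because 1 of the 3 genes is among the clearest differences between the groups.
Hspa5, chr2:34771990-34772069, plus strand: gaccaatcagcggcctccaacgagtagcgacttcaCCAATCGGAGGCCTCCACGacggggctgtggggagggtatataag
Hsp90b1, chr10:86705505-86705674, minus strand: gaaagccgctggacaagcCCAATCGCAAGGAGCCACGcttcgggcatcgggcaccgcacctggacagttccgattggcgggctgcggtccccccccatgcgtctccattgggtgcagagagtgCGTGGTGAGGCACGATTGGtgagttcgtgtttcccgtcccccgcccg
Dnajc3, chr14:118937797-118937876, plus strand: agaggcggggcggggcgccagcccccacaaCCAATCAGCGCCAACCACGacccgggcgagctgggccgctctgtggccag

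The heat shock element was searched as 3 units, GAA, TTC and GAA, with 2 free bases between neighbors, on either strand. It was found in 4 of the 57 genes (7.02%), against 179 of 27025 genes (0.662%). Below, the stretches of Hspd1, Dnajb6 and Hsph1 have it in capitals. Hspd1 and Hspe1 lie head to head, and the 2 overlapping elements of the Hspd1 stretch are also those of Hspe1, read from the other strand.
Hspd1, chr1:55088033-55088102, minus strand: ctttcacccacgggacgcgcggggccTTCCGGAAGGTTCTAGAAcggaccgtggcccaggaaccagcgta
Dnajb6, chr5:29735828-29735887, plus strand: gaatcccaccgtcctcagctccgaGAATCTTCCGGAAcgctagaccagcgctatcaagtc
Hsph1, chr5:149636280-149636308, minus strand: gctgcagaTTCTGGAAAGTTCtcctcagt

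The shorter element of 2 units, GAANNTTC, is contained in the first and reads the same on both strands. It was present in 13 of 57 member genes (22.8%), Hspa1a, Hspb1 and Dnaja1 among them, against 9.04% of all genes. The opposite arrangement, TTCNNGAA, was present in 6 of 57 (10.5%), against 9.6% of all genes. A match is a description of the letters in this window only.

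Median signals of the 12 arrays lay between 4.40 and 4.63. RS-4 and RS-6 had the narrowest signals, with an SD across the array of 1.97 and 1.99, below the 2.06 to 2.15 of the other mice, and both stood apart on the first principal component. The 8 fast-fiber markers, among them the myosin heavy chain Myh4, averaged at least 11.32 in either group, as gastrocnemius should, and none passed the test. Markers of other cells moved with the groups. All 8 fibroblast and matrix markers, all 6 macrophage markers, 5 of 6 endothelial and 5 of 6 tendon markers were called higher in RT, as were 3 of 5 adipocyte markers and 1 of 2 of erythrocytes. With array spread as a covariate the calls were 2 of 8 for fibroblasts, 5 of 6 for macrophages, 2 of 6 for endothelium, 4 of 6 for tendon and 0 of 5 for adipocytes. Without RS-4 and RS-6 they were 6, 6, 3, 4 and 2 for the same lists in this order. Lymphocytes and neutrophils (1 of 5), Schwann cells (1 of 2) and satellite cells (1 of 4) had 1 marker lower each, and none of 7 slow-fiber markers passed (median −0.44). Summed on the linear scale, fibroblast markers ranged over 4592 to 5913 in RT and 2277 to 4639 in RS, and macrophage markers over 523 to 793 in RT and 202 to 447 in RS. Of the fibroblast, macrophage, endothelial and tendon markers, the dimmest were Mkx, a tendon factor, and Adgre1, a macrophage receptor, both under 5 on the log2 scale in every mouse. The part of these cells in the results below was not tested, and in whole muscle fewer cells of a type and less RNA per cell cannot be told apart.

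Of the 93 member transcript clusters, 13 were called higher and 4 lower in RT than in RS, and 76 did not pass the test (limma, unadjusted p under 0.05 and Benjamini-Hochberg adjusted p under 0.1 over all transcript clusters). Among all transcript clusters, 11.9% were called higher and 13% lower, so that the members' 14.0% higher was near the background and their 4.30% lower was under it. Counted once per gene by the transcript cluster of highest mean signal, 9 of 70 genes were higher and 2 lower, beside 13.9% and 10.7% of all genes. The lower calls of Hspa8 and Hspd1 fall outside this count, being in dimmer transcript clusters of those genes. The median change of the members, RT minus RS, was 0.045 on the log2 scale, against −0.01 for all transcript clusters, and single members ranged between −0.68 and 0.47. Direction went with brightness across the array. Of the transcript clusters brighter than the median, which held 83 of the 93 members, 20.6% were called higher and 10.7% lower, and 13 and 3 of the 83 members were. Member calls moved with the arrays too, being 1 higher and 2 lower with array spread as a covariate (background 2.53% and 3.07%), and 5 higher and 3 lower without both RS-4 and RS-6 (background 5.7% and 6.19%).

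**Figure D1:**
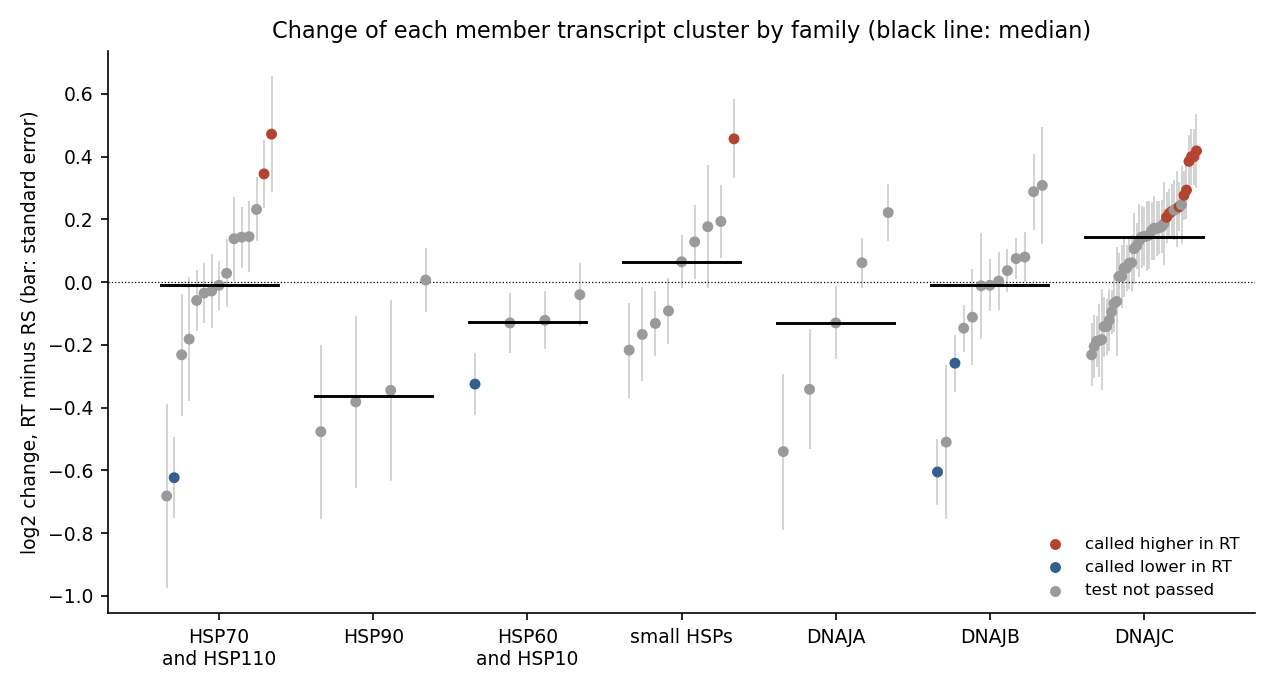
Change of each of the 93 member transcript clusters, RT minus RS in log2 units, by family. Points are transcript clusters in order of change, grey bars are standard errors, black lines are family medians, and 10 of the 13 higher calls (red) are DNAJC.

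By family, 10 of 43 DNAJC transcript clusters were higher and none lower, with a median change of 0.14. Of the 43, 38 are brighter than the median of the array, where 20.6% of all transcript clusters were called higher, so that the 23.3% of DNAJC was near the background. The count was 1 higher with array spread as a covariate (background 2.53%) and 5 without RS-4 and RS-6 (background 5.7%). After cyclic loess normalization 4 of the 43 were higher and 2 lower, beside 9.57% and 9.73% of all transcript clusters. By the transcript cluster of highest signal, 6 of 28 DNAJC genes were called higher. Dnajc13 is not one of these 6, although 3 of the 10 called transcript clusters are parts of it. In the HSP70 and HSP110 family, 2 of 15 were higher and 1 lower (median −0.01). Small heat shock proteins had 1 higher of 9 (median 0.06). DNAJB had 2 lower of 13 (median −0.01), and HSP60 with HSP10 1 lower of 4 (median −0.13). None of the 4 HSP90 (median −0.36) and 5 DNAJA transcript clusters (median −0.13) passed the test with limma or with the methods' one-way test, though 0 and 2 of them had an unadjusted p under 0.05 with limma. Of the 4 HSP90 transcript clusters, 3 belong to Hsp90aa1, and without RS-5 the median of the 4 was −0.06.

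All 10 genes on the list of ER chaperones had a higher mean in RT, with a median change of 0.26, and 3 of the 10 were called higher. All 10 are brighter than the array median, where 20.6% of all transcript clusters were called higher. The sign turned in 3 of the 10, for Hsp90b1 (0.01) under several settings, for Dnajb9 with array spread as a covariate (−0.14) and for Dnajb11, a cochaperone of BiP (0.04), after cyclic loess (−0.07) and quantile normalization (−0.07). With array spread as a covariate the median was 0.10 and 1 of 10 was called, and without RS-4 and RS-6 the median was 0.15 and 2 of 10 were called.

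Dnajc3 encodes p58IPK, a J-domain protein of the ER lumen that also restrains the stress kinase PERK. Its log2 signals were 7.34, 7.34, 7.22, 7.37, 7.24 and 7.48 in RT-1 to RT-6, against 6.96, 6.94, 7.04, 6.65, 7.16 and 6.84 in RS-1 to RS-6. The groups did not overlap, RT being the higher. Non-overlap in this direction was seen in 6 of the 93 members and in 2.69% of all transcript clusters. The change was 0.40 (SE 0.089, limma adjusted p = 0.00939), and the exact permutation p of 0.00216 is the smallest that 6 against 6 mice allow. The gene is listed in 2 transcript clusters with identical values, which count as 1 measurement. With array spread as a covariate the change was 0.27 and missed the threshold (adjusted p = 0.110).

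Dnajc10, or ERdj5, is a disulfide reductase that opens misfolded proteins for export from the ER. It measured 6.77, 6.79, 6.75, 6.72, 6.54 and 6.99 in RT-1 to RT-6, against 6.51, 6.40, 6.41, 6.23, 6.41 and 6.29 in RS-1 to RS-6. Again the groups did not overlap, though RT-5 and RS-1 lay only 0.03 apart. The change of 0.39 (SE 0.084, limma adjusted p = 0.00851) was the only higher call among members that was kept with array spread as a covariate (0.25, adjusted p = 0.0943), and it was also called without RS-4 and RS-6.

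Hspa13, an HSP70-like ATPase of microsomes, had the largest rise among members, 0.47 (SE 0.18, limma adjusted p = 0.0892, exact permutation p = 0.0736). Its signals were 5.80, 5.79, 5.50, 5.57, 5.70 and 5.90 in RT mice, against 5.80, 5.60, 5.64, 4.51, 5.13 and 4.75 in RS mice. The difference sat in RS-4, RS-6 and RS-5, while RS-1, RS-2 and RS-3 lay within the RT range. The change was 0.17 once RS-4 and RS-6 were left out (limma adjusted p = 0.426) and 0.04 with array spread as a covariate, and the call was lost on leaving out any of 8 single mice.

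Hspa5, or BiP, is the main HSP70 of the ER and the reference target of the unfolded protein response. It averaged 8.57 ± 0.12 in RT and 8.34 ± 0.22 in RS (SD, n = 6 each), a change of 0.23 that missed the threshold (limma adjusted p = 0.127). RS-5, at 8.66, was the one RS mouse among the highest values, and without it the change was 0.30 and was called (adjusted p = 0.0593). Other settings made it smaller, 0.08 with array spread as a covariate, 0.11 without RS-4 and RS-6 and 0.09 after cyclic loess, and it was called under none of these 3. Hsp90b1 (GRP94), the HSP90 of the ER, averaged 8.49 ± 0.08 in RT and 8.48 ± 0.24 in RS, a change of 0.01. Its sign turned under several settings. So of the 3 genes with an ER stress element in the window above, Dnajc3 was called higher, Hspa5 was not, and Hsp90b1 differed by 0.01. Among the other ER members, Dnajb9 (ERdj4) changed by 0.31 (SE 0.19, adjusted p = 0.262) and Dnajb12, a membrane J-domain protein, by 0.29 (adjusted p = 0.111), and neither passed the test. Without RS-4 and RS-6, Dnajb9 changed by only 0.0050.

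**Figure D2:**
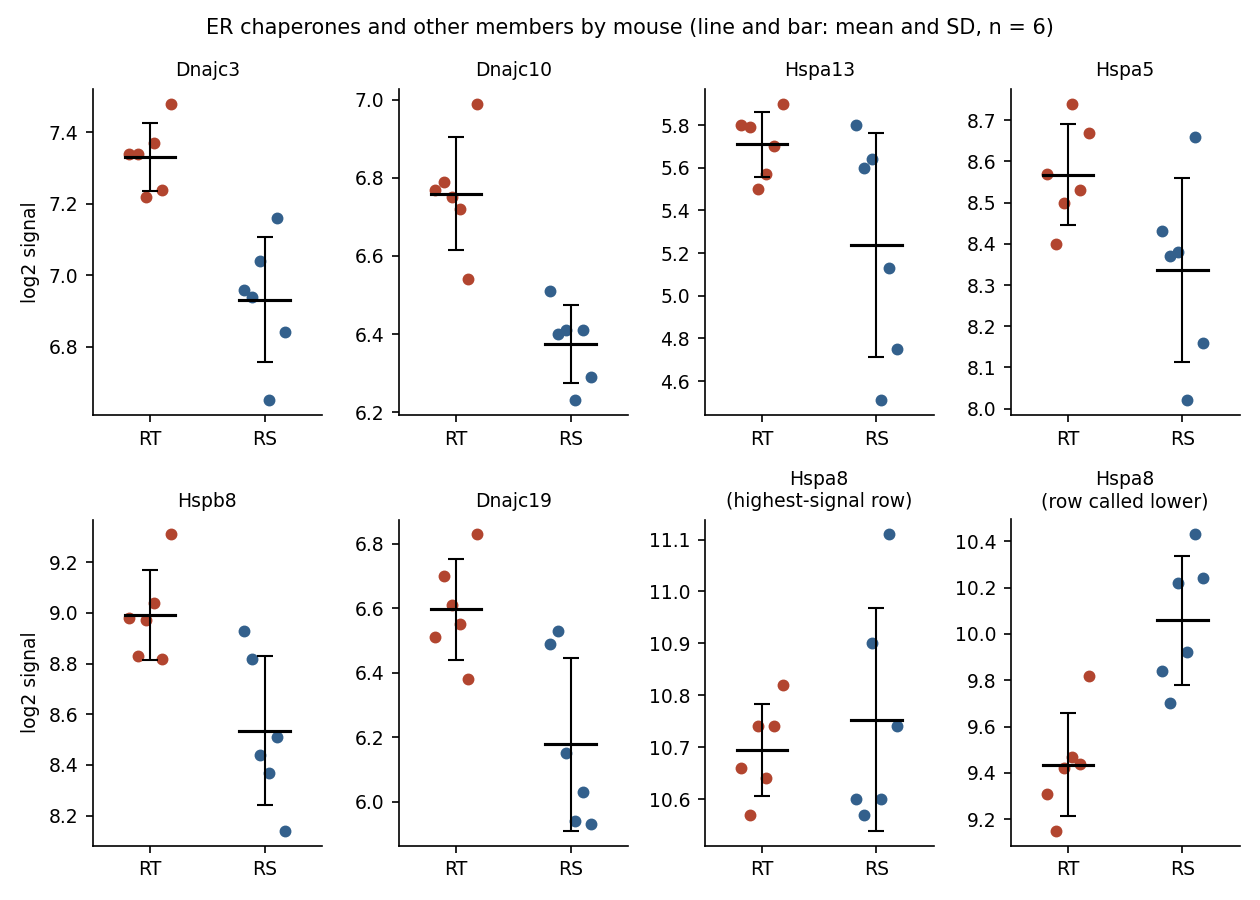
Log2 signals of 7 member genes by mouse, RT left of RS, each panel on its own axis. Points are mice in replicate order, and lines and bars are means and SD (n = 6 each). Dnajc3 and Dnajc10 separate all RT from all RS mice, whereas the 2 Hspa8 panels, rows of the same gene, differ.

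The ER list of partner genes, those of folding enzymes and unfolded protein response sensors that the naming rule does not take, had 6 of 18 measured genes higher and 1 lower in RT. All 18 are brighter than the array median, where the background was 20.6% higher and 10.7% lower. Herpud1, part of the complex that sends ER proteins to the proteasome, had 9.01 to 9.45 (median 9.14) in RT and 8.11 to 9.08 (median 8.60) in RS, a change of 0.58 (SE 0.14, limma adjusted p = 0.0116). Of the 6 RT mice, 4 lay above all RS mice. Pdia4, a disulfide isomerase, changed by 0.49 (adjusted p = 0.0159), with 5 RT mice above all RS mice. Calr (0.31), Pdia6 (0.28), P4hb (0.28) and Sdf2 (0.25) were the other rises, and Sdf2l1, a partner of Dnajb11, was lower (−0.23, adjusted p = 0.0554). Of the 18 genes, 13 had a higher and 5 a lower mean in RT. Ern1 (−0.18), Manf (−0.17), Ddit3 (−0.15) and Creld2 (−0.025) were among the 5 and were not called. After cyclic loess 2 of the 18 were called higher and 2 lower, beside 9.57% and 9.73% of all transcript clusters. Herpud1 and Pdia4 were called without RS-4 and RS-6, and none of the 82 measured partner genes was called with array spread as a covariate, where 8 had an unadjusted limma p under 0.05.

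The heat-inducible cytosolic chaperones behaved otherwise. None of the 8 measured genes was called by limma or by the methods' one-way test, 2 had an unadjusted limma p under 0.05 (Hspa1a and Dnaja1), all 8 had a lower mean in RT, and the median change was −0.29. Without RS-5 that median was −0.05 and the sign turned for Hspa4l (0.0010) and Dnajb4 (0.13). Dnajb4, at −0.01 over all mice, also turned positive after median centering and without RS-3, RT-1 or RT-5. The 8 genes spread widely within RS. In 8 of 8 the SD in RS was over 2 times the SD in RT, beside 36 of the 93 members and 22.6% of all transcript clusters, and the median SD of the 8 was 0.15 in RT and 0.66 in RS. In 8 of 8 the highest array was RS-5, which was highest in 4.88% of all transcript clusters. Both patterns were also met in members outside this list. These were all 4 transcript clusters of HSP60 and HSP10, Hsp90b1, Hspa4 and the Hspa8 transcript cluster of highest signal. Neither was tested.

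Hspa1a, the classic inducible HSP70, measured 5.14, 5.26, 5.54, 5.10, 5.56 and 5.10 in RT mice, against 5.00, 4.97, 6.21, 5.96, 7.26 and 6.39 in RS mice. RS-1 and RS-2 lay below every RT mouse and the other 4 RS mice above every RT mouse. The change of −0.68 (SE 0.29) was the largest fall in mean among members and missed the threshold (limma adjusted p = 0.118, exact permutation p = 0.0887). Its near-identical neighbor Hspa1b was read only together with it. That shared transcript cluster, which is not a member and was picked after its values were seen, had 5.84 to 6.52 (median 6.18) in RT, against 6.40, 6.37, 7.29, 7.08, 8.92 and 7.82 in RS-1 to RS-6. Here 4 of the 6 RT mice lay below all RS mice, and the change of −1.09 (SE 0.32) was called lower (limma adjusted p = 0.0319). It stayed called without RS-5 (−0.77, adjusted p = 0.0360), but neither with array spread as a covariate (−0.89, adjusted p = 0.252) nor when RS-4 and RS-6 were left out (−1.02, adjusted p = 0.113).

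Hsp90aa1, the stress-inducible cytosolic HSP90, measured 7.54, 7.39, 7.81, 7.48, 7.44 and 7.79 in RT mice, against 7.28, 7.21, 8.26, 7.37, 9.49 and 7.91 in RS mice. RS-5 stood 2.12 above the median of the other RS mice. The change was −0.34 over all mice (limma adjusted p = 0.423) and −0.03 without RS-5. Its other 2 transcript clusters gave −0.38 and −0.48, and none of the 3 passed the test.

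Dnajb1 and Dnaja1, the main J-domain partners of cytosolic HSP70, had the same shape. In RT mice Dnajb1 measured 5.32, 5.19, 5.43, 5.53, 5.37 and 5.72, against 5.04, 5.40, 6.00, 5.90, 7.18 and 6.10 in RS mice, a change of −0.51 (SE 0.25, limma adjusted p = 0.161). Dnaja1 averaged 7.41 ± 0.19 in RT and 7.95 ± 0.74 in RS (SD, n = 6 each), a change of −0.54 (adjusted p = 0.143), and RS-5 reached 9.11. Its second transcript cluster gave −0.34 and was not called either. A transcript cluster shared by Dnaja1 and Mir207, which is not a member, was called lower (−0.30, limma adjusted p = 0.0350). It was named with its values known. There RS-4 was highest at 7.79, with RS-5 at 7.70. The call held when RS-5 was dropped (−0.29, limma adjusted p = 0.0684). It was lost with array spread as a covariate (−0.16) and on dropping RS-4 together with RS-6 (−0.24). Hsph1, the exchange factor HSP110 with a heat shock element in the window above, averaged 6.99 ± 0.12 in RT and 7.22 ± 0.57 in RS, with RS-5 at 8.19. Hspb1 (HSP25) was tight in RT, between 8.11 and 8.18, and ran between 7.95 and 9.15 in RS. Its change was −0.22 (adjusted p = 0.334), and −0.06 without RS-5.

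**Figure D3:**
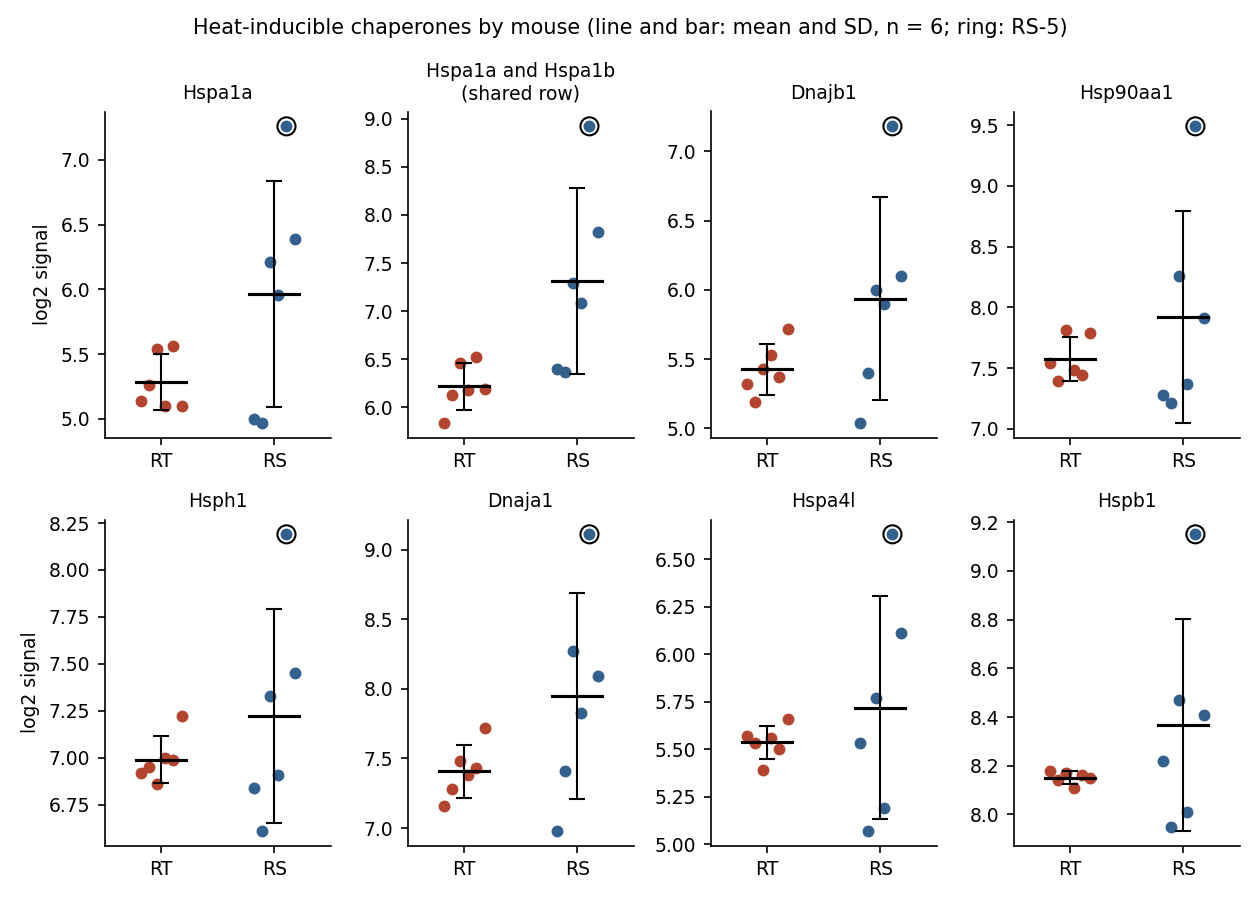
Log2 signals of 7 heat-inducible members and of the transcript cluster shared by Hspa1a and Hspa1b, by mouse, RT left of RS, each panel on its own axis. Points are mice, lines and bars are means and SD (n = 6 each), and the ringed point is RS-5, the highest of the 12 mice in every panel.

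The position of RS-5 can be followed over all members. Of the 93, 16 lay more than 0.5 above the median of the other RS mice in RS-5 (17.2%) and none lay more than 0.5 below it. Over the whole array 1.62% of transcript clusters did so upward and 1.26% downward. Besides the heat-inducible list these were Dnajb6, whose stretch is printed above (0.70), Hspa8 (0.51 in 2 transcript clusters) and Hspa12b (0.51). The Dnajb6 value comes from a transcript cluster of mean signal 4.94. In brighter ones shared with Gm4247, which are not members, RS-1 and RS-6 lay close to RS-5. The brightest of these had 8.39 in RS-1, 8.29 in RS-6 and 8.34 in RS-5. RS-2 was the opposite, with 15 members more than 0.5 below the other RS mice and none above, beside 2.76% and 1.92% of all transcript clusters. RS-1 had 2 above (background 3.06%) and 7 below (2.8%), and RS-3 had 6 members above (1.85%) and 0 below (1.33%). RS-6 had 5 above (3.42%) and 5 below (4.75%), and RS-4 had 0 above (6.41%) and 7 below (2.46%). No RT mouse had more than 2 members in either direction, where the background lay between 0.567% and 1.75%. With each of the 8 heat-inducible genes centered on its mean over the 12 mice, the median over the genes lay, in RT mice, between −0.26 and 0.04, and at 1.26 in RS-5, 0.38 in RS-6, 0.34 in RS-3, −0.22 in RS-4, −0.37 in RS-1 and −0.52 in RS-2. RS-4 and RS-6, the arrays of narrow spread, thus lay on opposite sides.

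**Figure D4:**
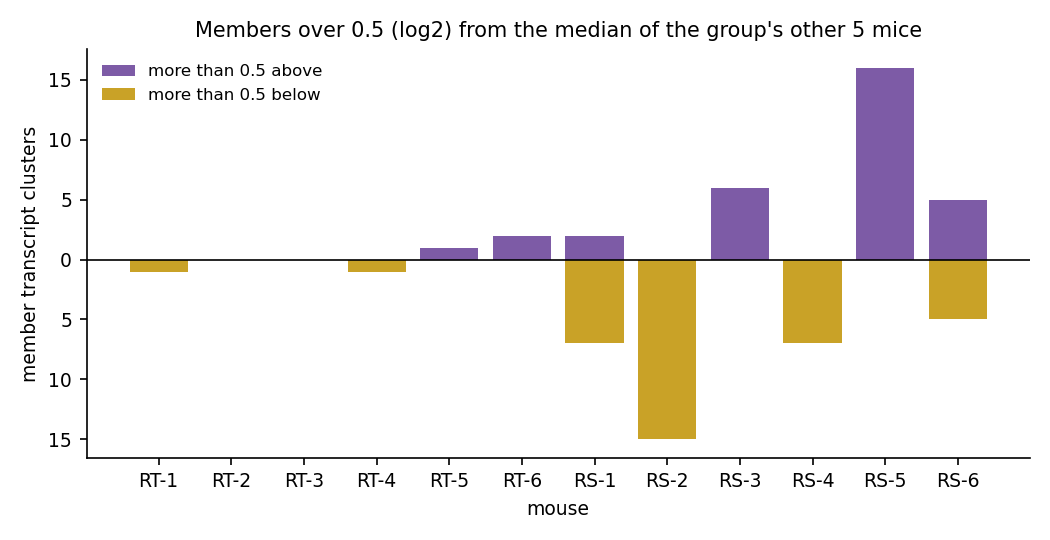
Number of the 93 member transcript clusters that lay more than 0.5 (log2) above (up) or below (down) the median of the other 5 mice of the same group, for each mouse, RT first. RS-5 has 16 above and none below, and RS-2 has 15 below and none above.

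Some partner genes stood high in RS-5 too. In that mouse 8 of 82 lay more than 0.5 above the other RS mice, among them the HSP90 activator Ahsa2 (1.08), Chordc1 (0.82), the HSP70-HSP90 adaptor Stip1 (0.59) and the exchange factor Bag3 (0.56), and 1 lay below, Bag2 (−0.58). Pdia3 and Ern1 of the ER list were also among the 8. Over whole lists, the median centered value of RS-5 was −0.09 for the 10 HSP70 partners and 0.03 for the 23 HSP90 cochaperones. Between the groups, Ahsa2 measured 5.69 to 5.91 (median 5.79) in RT and 5.73 to 7.06 (median 6.22) in RS and was called lower (−0.51, SE 0.18, limma adjusted p = 0.0577). Without RS-5 it was not called (−0.36, adjusted p = 0.104). Tomm34 (0.34, adjusted p = 0.0299) and the phosphatase Ppp5c (0.33, adjusted p = 0.0158), both binding partners of HSP90, were higher, and all RT mice lay above all RS mice for Ppp5c. Pfdn5, a subunit of prefoldin, was the only call among 14 genes of the chaperonin TRiC and prefoldin (0.27, adjusted p = 0.0592). Sec63, the J-domain protein of the ER translocon, was the only one among 3 measured J-domain proteins outside the naming rule (0.25, adjusted p = 0.0753). These 14 and 3 genes are all brighter than the array median, where 20.6% of all transcript clusters were called higher. Of the listed heat shock factors, Hsf2, Hsf4 and Hsf5 had a transcript cluster that carried their symbol alone, and Hsf1 had none. None of the 3 measured heat shock factors, the 10 HSP70 partners and exchange factors and the 2 alpha-crystallins was called by limma, where 1, 2 and 1 of them had an unadjusted p under 0.05. The methods' one-way test called 1 of the 10.

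Hspa8 (HSC70), the constitutive cytosolic HSP70, differed between its transcript clusters. The one of highest signal averaged 10.70 ± 0.09 in RT and 10.75 ± 0.21 in RS (SD, n = 6 each) and did not pass the test (−0.06, adjusted p = 0.704). A second behaved likewise (−0.04). The third measured 9.31, 9.15, 9.42, 9.47, 9.44 and 9.82 in RT mice, against 9.84, 9.70, 10.22, 9.92, 10.43 and 10.24 in RS mice. Of the RT mice, 5 lay below every RS mouse, and RT-6 lay above RS-2 only. Its change of −0.62 (SE 0.13, limma adjusted p = 0.00633) was called with array spread as a covariate (adjusted p = 0.0427), without RS-4 and RS-6 and without RS-5 as well. Another 2 transcript clusters, shared by Hspa8 and the small nucleolar RNA genes Snord14c and Snord14d that lie in its introns, were lower too (−0.42 and −0.41) and are not members. Their values differ by at most 0.02 in any mouse, so that they count as 1 measurement, and neither call was kept with array spread as a covariate (adjusted p = 0.145 and 0.141). HSC70 has many processed copies in the mouse genome, so which transcripts each transcript cluster reads is uncertain. The one of highest signal was chosen by brightness, not by position, and need not be the one that reads the Hspa8 gene itself. The transcript cluster called lower went the same way as those shared with the small nucleolar RNA genes of the Hspa8 introns.

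Hspa14, a ribosome-bound HSP70, measured 5.33 to 5.59 (median 5.46) in RT and 4.75 to 5.34 (median 5.21) in RS. Of the RT mice, 5 lay above all RS mice, and RS-4 and RS-6 were the lowest. The change was 0.34 (SE 0.11, limma adjusted p = 0.0412), and 0.19 once RS-4 and RS-6 were left out (adjusted p = 0.175). The remaining members of the family, among them the vascular Hspa12b and the germ-cell HSP70s Hspa1l and Hspa2, changed by between −0.18 and 0.14 and did not pass.

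Mitochondrial chaperones had 1 call among 8 genes and a median change of 0.09. All 8 are brighter than the array median, where 20.6% of all transcript clusters were called higher. Dnajc19, the J-domain protein of the inner-membrane import motor, measured 6.51, 6.70, 6.61, 6.55, 6.38 and 6.83 in RT mice, against 6.49, 6.53, 6.15, 5.94, 6.03 and 5.93 in RS mice. Of the RT mice, 4 lay above all RS mice. The change was 0.42 (SE 0.12, limma adjusted p = 0.0264), and 0.21 with array spread as a covariate (adjusted p = 0.317). Hspa9 (mortalin), the HSP70 of the matrix, averaged 10.19 ± 0.05 in RT and 10.04 ± 0.23 in RS, a change of 0.14 (adjusted p = 0.318). Hspd1 (HSP60) and Hspe1 (HSP10), the chaperonin pair with the shared heat shock elements, had changes of −0.04 and −0.13 in the transcript cluster of highest signal, and neither passed. A dimmer transcript cluster of Hspd1 was lower, with 7.90 to 8.09 (median 7.96) in RT and 8.03 to 8.66 (median 8.25) in RS (−0.33, SE 0.098, adjusted p = 0.0361). The transcript clusters of Hspd1 were ranked by signal, not by position, and which one reads the Hspd1 gene itself was not examined. Of 9 mitochondrial partner genes, all brighter than the array median too, Trap1, the HSP90 of mitochondria, was higher (0.39, adjusted p = 0.0678).

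Of the small heat shock proteins of muscle, 1 of 6 was called. All 6 are brighter than the array median, where 20.6% of all transcript clusters were called higher. Hspb8, which works with Bag3 to clear damaged proteins of the contractile apparatus, measured 8.98, 8.83, 8.97, 9.04, 8.82 and 9.31 in RT mice, against 8.93, 8.82, 8.44, 8.37, 8.51 and 8.14 in RS mice. RS-1 and RS-2 lay within the RT range and the other 4 RS mice below it. The change was 0.46 (SE 0.13, limma adjusted p = 0.0246), and 0.32 once RS-4 and RS-6 were left out (adjusted p = 0.121). Hspb6 (HSP20) averaged 11.02 ± 0.13 in RT and 10.83 ± 0.28 in RS (0.19, adjusted p = 0.257). Hspb2, Hspb3 and Hspb7 changed by 0.06 to 0.18 without passing the test.

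Some J-domain proteins on neither the ER list nor the mitochondrial list were called too. Dnajc5, the cysteine-string protein of exocytic vesicles, measured 7.26, 7.41, 7.36, 7.57, 7.36 and 7.40 in RT mice, against 7.24, 7.04, 7.23, 7.06, 6.97 and 7.16 in RS mice. The groups did not overlap, by 0.02 between RT-1 and RS-1. The change was 0.28 (SE 0.079, limma adjusted p = 0.0288). It was also called without RS-4 and RS-6, and with array spread as a covariate it was 0.25 (adjusted p = 0.158). Dnajc14 (0.23, adjusted p = 0.0892) and Dnajc18 (0.21, adjusted p = 0.0913) were called higher close to the threshold, and each call was lost on leaving out any of 9 single mice.

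Dnajc13, an endosomal J-domain protein also known as RME-8, was read in 15 transcript clusters, which are parts of 1 gene and share its transcripts. Of these, 3 were called higher (0.29, 0.24 and 0.22) and 12 did not pass. The one of highest signal, which stands for the gene, was among the 12 (0.18, limma adjusted p = 0.155). The changes of all 15 ranged between −0.23 and 0.29 with a median of 0.17, 11 positive and 4 negative. The 15 rows thus make up a good part of the DNAJC counts given above.

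Dnajb13, a J-domain protein of cilia and sperm flagella, was the clearest fall by its p. It measured 3.49, 3.27, 3.67, 3.47, 3.54 and 3.27 in RT mice, against 3.92, 4.13, 3.76, 4.08, 4.04 and 4.41 in RS mice. All RT mice lay below all RS mice, the only member to do so, beside 3.1% of all transcript clusters. The change was −0.61 (SE 0.11, limma adjusted p = 0.00256) and was called with array spread as a covariate (adjusted p = 0.0342) and without RS-4 and RS-6. Its signals lie below the median of the array, where 15.3% of all transcript clusters were called lower. Dnajb2, a neuronal J-domain protein also known as HSJ1, was lower by 0.26 on the log2 scale (−0.26, SE 0.091, adjusted p = 0.0637), a call lost without RS-6, RT-1, RT-4 or RT-6. Dnajb5 separated the groups with a change of only 0.08, 7.10 to 7.19 in RT and 6.98 to 7.09 in RS, and did not pass the test (adjusted p = 0.444).

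**Figure D5:**
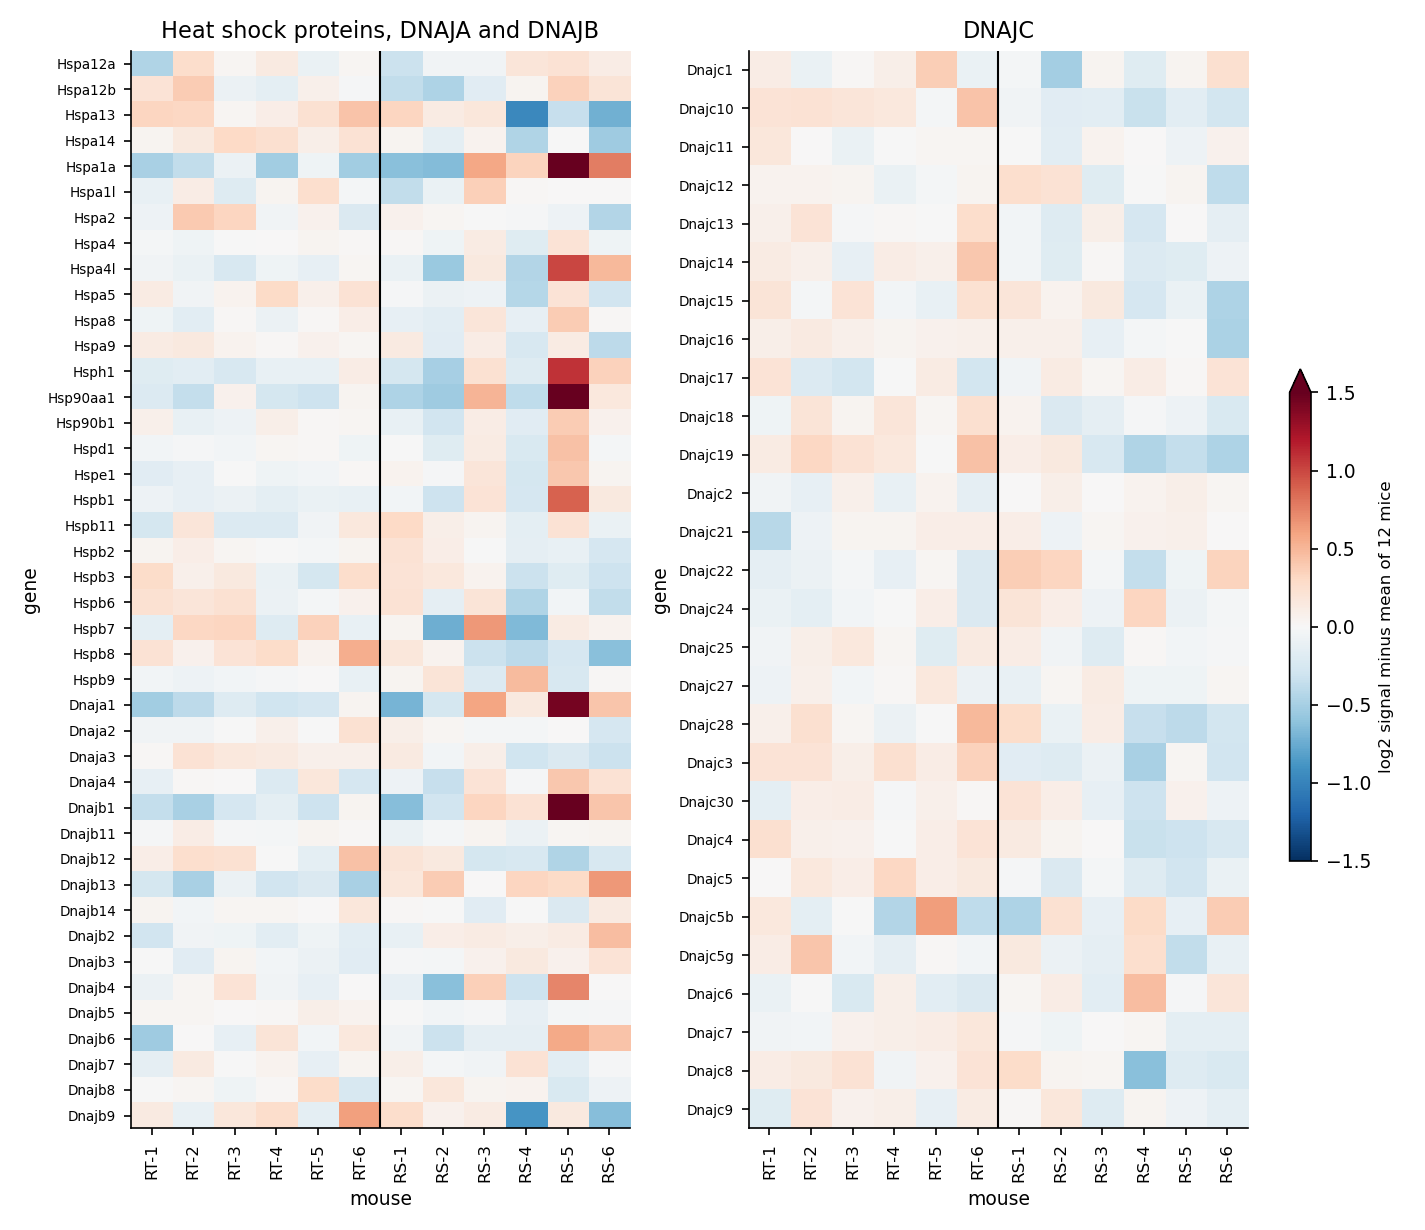
Log2 signal of each of the 70 member genes in each mouse, minus the gene's mean over the 12 mice, RT mice left of the black line. Red is higher and blue lower than the mean, and values above 1.5, met only by Hspa1a and Hsp90aa1 in RS-5, share the darkest red. The heat-inducible genes differ mainly among RS mice.

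Over all members, the SD within RS exceeded that within RT in 72 of 93, beside 69.8% of all transcript clusters, so this share was near the rest of the array. An SD over 2 times larger in RS was seen in 36 of the 93 members, 22.6% being the share of all transcript clusters. RS-5 was the highest of the 12 mice in 23 of the 93. In all these counts, transcript clusters of the same gene are not independent.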

How the data were processed

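Gastrocnemius RNA (250 ng) of 12 mice was labeled and hybridized to Affymetrix Mouse Gene 1.0 ST arrays, 1 per mouse. The deposited values are log2 signals per transcript cluster, which the authors background-corrected, normalized between arrays and summarized by the robust multi-array average (RMA). The methods name RMA in one paragraph and its SST-RMA variant in another. RMA makes the arrays alike in overall distribution, so changes are relative to the other genes, and dim signals are compressed. The genome build behind the transcript clusters is not given in the sources used here. The matrix held 0 columns of other samples, and the number of arrays limits the precision.

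Symbols came from the platform annotation: 21789 transcript clusters had 1 symbol, 1621 several and 5534 none. The symbols of all 70 member genes were found in the RefSeq gene table. A gene read in more than 1 transcript cluster was represented by its brightest on average, without regard to genomic position, and disagreement is stated. No gene's level was set against another's.

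The difference RT minus RS was fitted with limma 3.58.1 (lmFit, eBayes, two-sided) under R 4.3.3, over all 28944 transcript clusters, with the thresholds of the methods (unadjusted p under 0.05, adjusted p under 0.1). All adjusted p-values in the text are from limma. Exact permutation tests of the difference of means used all 924 splits of 6 against 6, two-sided. The script was tested on simulated data.

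Named were the 8 largest rises and falls among called members, the member with the highest signal of each family, and a fixed list (Hspa1a, Hspa1b, Hspa5, Hspa8, Hspa9, Hsp90aa1, Hsp90ab1, Hsp90b1, Hspd1, Hspe1, Hsph1, Hspb1, Dnaja1, Dnajb1). Of each partner list, the called gene with the largest change in each direction was named. Others are examples of their group named with their values known. Partner lists (86 genes, 82 measured), role lists and 11 marker lists came from textbook knowledge. A listed gene counted as measured when a transcript cluster carried its symbol alone. Members and lists were chosen with earlier results of these data known.

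Alternatives were a further quantile normalization, cyclic loess, centering on the array median, leaving out the dimmest 33.3%, array spread as a covariate, eBayes with trend and robust, array weights, the methods' one-way test, the replicate number as a block, leaving out each array or RS-4 together with RS-6, counting identical rows once, and an adjusted p under 0.05. The test of the transcript cluster shared by Hspa1a and Hspa1b was added after seeing the data.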

Additional observations from a re-analysis of the deposited data

Results flagged for a closer look

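Of the 56 groups of 6 mice tested (28 named transcript clusters in RT and in RS), 1 held a mouse far from the others. Dnaja2, a constitutive J-domain partner of cytosolic HSP70, measured 8.53 in RS-6, against 8.75 to 8.86 in the other 5 RS mice. Chance alone marks about 1 in 20 such groups. RS-6 is one of the arrays of narrow spread, whose part in this was not tested.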

How the results depend on the processing

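The member counts depended on array scaling, and those of higher calls more than on single mice. Members called higher, 13 as reported, were 6 after a further quantile normalization, 6 after cyclic loess, 22 after centering each array on its median, 1 with array spread as a covariate and 5 without RS-4 and RS-6, and ranged over 9 to 18 when 1 array was left out. Members called lower, 4 as reported, were 8 after cyclic loess, 2 with the covariate and 9 with array weights, and ranged over 3 to 8 when 1 array was left out, with 8 without RS-1. Over all transcript clusters, 3445 higher and 3764 lower became 5883 and 2414 after centering, 732 and 888 with the covariate, 1649 and 1791 without RS-4 and RS-6, and 2092 and 2307 at an adjusted p under 0.05. The median change of the members was −0.011 after cyclic loess, 0.12 after centering and −0.022 with the covariate. The cause of these shifts was not tested.

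Partner genes called higher, 11 as reported, were 4 after quantile normalization, 4 after cyclic loess, 25 after centering, 0 with the covariate, 3 without RS-4 and RS-6 and 5 at an adjusted p under 0.05, with 4 to 23 when 1 array was left out (4 without RT-6, 23 without RS-1). Partner genes called lower, 2 as reported, were 7 after quantile normalization, 7 after cyclic loess, 1 after centering, 5 without the dimmest 33.3%, 0 with the covariate, 4 with array weights, 1 without RS-4 and RS-6 and 0 at an adjusted p under 0.05, with 0 to 5 when 1 array was left out.

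Single mice ended few of the stronger calls. Of the 17 member calls, those of Hspa13 (8 of 12 mice left out), Dnajc14 (9), Dnajc18 (9), Dnajb2 (4) and 1 transcript cluster of Dnajc13 (7) were lost at least once, with adjusted p-values of up to 0.196, and the other 12 were kept whichever mouse was left out. Among partner genes, Ppp5c, Tomm34, Pdia4 and Herpud1 were kept throughout. The other 9 were lost at least once. The methods' one-way test did not call Hspa13 (adjusted p = 0.182), Ahsa2 (0.135), Trap1 (0.135) or the transcript cluster shared by Hspa1a and Hspa1b (0.105).

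Among members named by the rule, sign changes were met only in 8 transcript clusters that the reported test did not call. With the covariate, Hsp90b1 had −0.022, Hspb6 −0.043, Dnaja2 −0.027, Dnajc15 −0.077 and Hspa9 −0.020. After centering, Hspa8 (highest signal) had 0.017, Dnajb4 0.063 and Hspd1 (highest signal) 0.035. Hsp90b1 had −0.077 after quantile normalization, −0.13 after cyclic loess, −0.048 with array weights and −0.018 without RS-4 and RS-6. Dnaja2 had −0.014 after quantile normalization and −0.072 after cyclic loess. When 1 array was left out, Hspa8 ranged between −0.095 and 0.013, Hsp90b1 between −0.049 and 0.083, Dnajb4 between −0.14 and 0.13, and Hspd1 between −0.089 and 0.043, the highest of each without RS-5.

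RT and RS mice share replicate numbers that nothing ties to a litter or cage. Deviations from the group means correlated by −0.24 to 0.11 between mice of the same number, and 1 of 6 RT mice was closest to its own number. With 6 pairs this cannot show whether mice of the same number share anything beyond it. With the replicate number as a block, 7 members were called lower and 7 partner genes higher.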
